A study of Mus musculus with 12 samples.

Results

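The genes described here are 10 members of the interleukin-1 (IL-1) family and of the inflammasome, out of 19505 genes measured on 12 Affymetrix mouse arrays. They were chosen by name, with earlier results of these data known. They are the IL-1 ligand genes Il1a, Il1b and Il18, the antagonist and decoy genes Il1rn, Il1r2 and Il18bp, and the inflammasome genes Nlrp3, Casp1, Casp4 and Pycard. Each gene was read by 1 probe set. The cells were RAW 264.7, a mouse macrophage-like line transformed by Abelson leukaemia virus. All cultures received lipopolysaccharide (LPS), a bacterial cell wall component that activates macrophages, at 500 ng/mL, and all were incubated for 6 hours. The Inulin+TsSP group also received inulin, a plant fructan, at 500 µg/mL and TsSP at 50 µg/mL, the TsSP group received TsSP at 50 µg/mL, and the Inulin group received inulin at 500 µg/mL. The LPS group received LPS alone. The series describes TsSP only as helminth products, and no group without LPS was analysed here. Each group had 3 arrays. Whether replicate arrays stand for separate cultures is not stated in the labels, so p-values here measure only the spread between arrays, which may be technical.

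The members act at successive steps of one pathway. LPS sensing by Toll-like receptor signalling through NF-kB makes macrophages transcribe the IL-1 ligands and the sensor Nlrp3, a step known as priming. NLRP3 then assembles with the adaptor ASC, encoded by Pycard, and with caspase-1, which cleaves the IL-1 beta and IL-18 precursors to their active forms. The system has its own brakes: the receptor antagonist encoded by Il1rn occupies the IL-1 receptor without signalling, the decoy receptor encoded by Il1r2 captures ligand, and the binding protein encoded by Il18bp captures IL-18. RAW 264.7 cells are known for lacking ASC protein. The arrays read RNA and not cleavage or release, and with LPS in all groups they compare stimulated cells only, so the response to LPS itself was not measured.

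The promoters of 5 members are printed. Il1a and Il1b are neighbours on chromosome 2, and Casp1 and Casp4 are neighbours on chromosome 9. Whether the letters before these genes bear on their changes was not tested. Il1rn is added as the antagonist gene, from the first of its listed start sites. Each line gives the 250 bases before the transcription start in the direction of transcription, from RefSeq on build GRCm38.p6, and capitals mark matches to the motifs described after them.
Il1a, chr2:129309973-129310222, minus strand: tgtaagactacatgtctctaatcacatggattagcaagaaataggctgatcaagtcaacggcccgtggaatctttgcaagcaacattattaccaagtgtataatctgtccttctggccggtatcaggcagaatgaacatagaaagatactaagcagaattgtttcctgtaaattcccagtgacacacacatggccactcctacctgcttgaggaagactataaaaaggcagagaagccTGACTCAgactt
Il1b, chr2:129371140-129371389, minus strand: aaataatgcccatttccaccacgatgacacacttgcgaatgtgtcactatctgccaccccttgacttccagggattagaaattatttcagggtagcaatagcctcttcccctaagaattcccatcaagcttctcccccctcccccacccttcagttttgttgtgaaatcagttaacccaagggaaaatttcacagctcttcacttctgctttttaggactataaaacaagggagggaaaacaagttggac
Il1rn, chr2:24336610-24336859, plus strand: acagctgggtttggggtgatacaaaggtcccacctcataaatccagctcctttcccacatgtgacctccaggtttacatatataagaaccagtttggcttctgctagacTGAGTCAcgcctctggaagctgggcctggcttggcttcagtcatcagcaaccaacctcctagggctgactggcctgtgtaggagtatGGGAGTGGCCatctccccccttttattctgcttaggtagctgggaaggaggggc
Casp1, chr9:5298267-5298516, plus strand: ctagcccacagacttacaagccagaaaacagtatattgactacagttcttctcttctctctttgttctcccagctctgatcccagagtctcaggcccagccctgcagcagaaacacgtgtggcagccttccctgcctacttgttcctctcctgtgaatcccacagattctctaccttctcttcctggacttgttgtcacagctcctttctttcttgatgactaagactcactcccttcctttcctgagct
Casp4, chr9:5308599-5308848, plus strand: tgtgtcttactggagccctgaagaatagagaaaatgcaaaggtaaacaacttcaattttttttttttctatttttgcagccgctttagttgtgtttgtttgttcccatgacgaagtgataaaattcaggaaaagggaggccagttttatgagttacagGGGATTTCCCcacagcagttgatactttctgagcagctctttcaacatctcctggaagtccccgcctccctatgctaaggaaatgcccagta

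The first motif was a kB-like sequence, GGGANNNNCC, of the kind bound by NF-kB, and the second an AP-1-like sequence, TGANTCA, of the kind bound by Fos and Jun proteins. Both strands were searched, and the motifs do not overlap each other in these windows. The Casp4 window held GGGATTTCCC, which matches on both strands, beginning 92 bases before the start. The Il1rn window held GGGAGTGGCC 54 bases and TGAGTCA 141 bases before the start, and the Il1a window held TGACTCA 12 bases before it. Neither motif was found in the Il1b or Casp1 window. Over all 10 members, which have 14 listed start sites, the kB-like motif occurred before 3 genes (Il1rn, Casp4 and Nlrp3). Of these, Casp4 held it at both of its start sites, whose windows overlap, so that both show the same stretch of DNA. Il1rn held it only at site 1 of 3 and Nlrp3 only at site 2 of 2. The AP-1-like motif occurred before 2 genes (Il1a and Il1rn), for Il1rn again only at site 1. Counted by window, 4 of the 14 held the kB-like motif, with the shared Casp4 stretch counted at both start sites, and 2 the AP-1-like motif. Among 32851 mouse promoter windows of the same length, 17.6% held the kB-like motif and 6.75% the AP-1-like motif. A match is only a run of letters, and the window leaves out more distant elements.

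Each value below is a log2 signal as deposited, where a difference of 1 is a doubling, and probe sets differ in brightness, so the level of one gene is not ranked against that of another and a difference between 2 genes on an array is read only for how it shifts between groups. Array medians over all probe sets lay between 5.16 and 5.30, and 8771 to 9059 genes per array exceeded the brightest of 23 background probes, which lay at 6.16 to 6.28. The macrophage markers matched the label: 11 of 11 measured macrophage genes were above background on every array. The log2 of their summed linear signal was 19.70 to 19.74 in Inulin+TsSP, 19.69 to 19.71 in TsSP, 19.61 to 19.65 in Inulin and 19.56 to 19.64 in LPS. No measured mast cell, lymphocyte, fibroblast or epithelial marker was above background in a whole group, and of 4 dendritic cell markers only Ccr7 was. Of 7 neutrophil markers only S100a8 exceeded background, and it did so in the groups given TsSP. The log2 of the summed linear signal of that list was 8.48 to 9.30 in Inulin+TsSP and 8.87 to 9.02 in TsSP, against 6.32 to 6.56 in Inulin and 6.15 to 6.58 in LPS. Within the macrophage list, Adgre1 fell 2.08-fold and Itgam and Lyz2 rose 1.67-fold and 1.36-fold in TsSP against LPS (limma adjusted p = 0.00137, 0.000388 and 0.0246). The Lyz2 call was lost without any 1 of the LPS replicates or without TsSP replicate 2 or 3 (adjusted p 0.0559 to 0.0976). It was also lost with arrays centred on exon control probe sets (0.23, limma adjusted p = 0.261). When TsSP was added to inulin, Adgre1 and Aif1 fell 2.22-fold and 1.53-fold and Itgam and Fcgr1 rose 1.60-fold and 1.27-fold, and the same 4 genes were called in Inulin+TsSP against LPS. On inulin the Aif1 call was lost without Inulin replicate 1 or Inulin+TsSP replicate 1 (adjusted p = 0.0588 and 0.057), and the Fcgr1 call without any 1 array other than Inulin replicate 2 (adjusted p 0.0522 to 0.147). In Inulin+TsSP against LPS the Fcgr1 call was lost without LPS replicate 1, 2 or 3 or Inulin+TsSP replicate 1 or 2 (adjusted p 0.0526 to 0.0925). With exon control centring the Fcgr1 call was lost both on inulin (limma adjusted p = 0.196) and in Inulin+TsSP against LPS (0.283). The part of these marker shifts in the results was not tested. In such bulk samples, fewer cells of a type and less RNA per cell cannot be told apart.

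With TsSP the ligand genes Il1a, Il1b and Il18, the sensor gene Nlrp3 and the binding protein gene Il18bp were lower, as was, modestly, Casp4. The decoy receptor gene Il1r2, near background without TsSP, and the adaptor gene Pycard were higher. In TsSP against LPS alone, 6 of the 10 members fell and 2 rose by limma with a Benjamini-Hochberg adjusted p below 0.05 over all 19505 genes, in a comparison where 7.08% of all genes fell and 11.0% rose (18.1% called). The members' changes had a median of -0.73, while the median of all genes was 0.019. When TsSP was added to inulin, the means came from the other 6 arrays, with the spread still estimated over all 12. There 6 members fell and 3 rose, where 7.99% of genes fell and 8.66% rose (16.7% called). The members' median was -0.69 against -0.001 for all genes. For Inulin+TsSP against LPS, which shares the LPS arrays, the counts were again 6 and 3, where 7.3% of genes fell and 10.3% rose (17.6% called), with a members' median of -0.61 against 0.023. These percentages, and those beside the lists below, are over all 19505 genes, including those below background. When only the 9022 genes above background on every array of some group were fitted, 1565 fell and 2617 rose in TsSP against LPS. The numbers were 1852 and 2116 when TsSP was added to inulin, and 1672 and 2499 in Inulin+TsSP against LPS. Because the members were chosen with earlier results of these data known, their counts are descriptive. Inulin moved no member past the threshold in either setting.

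**Figure D1:**
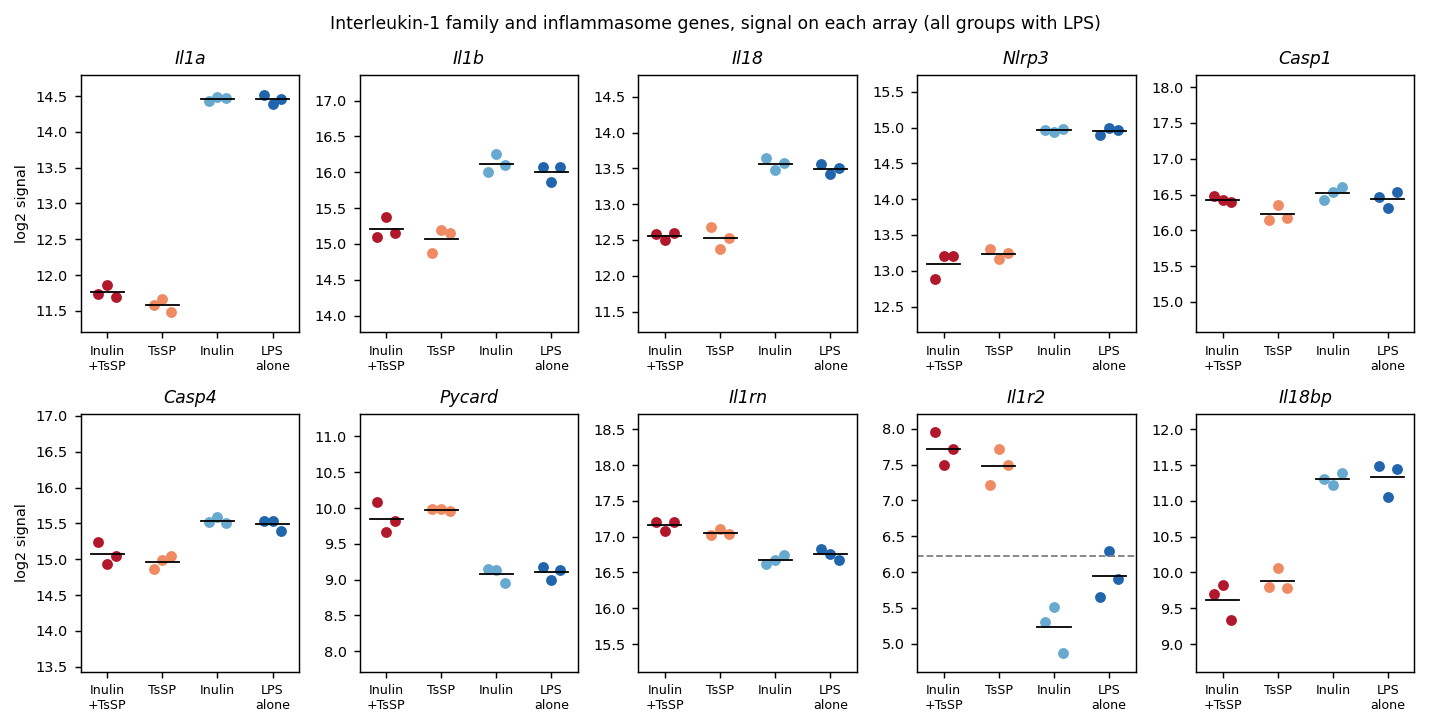
Log2 signal of the 10 genes on each of the 12 arrays, 1 panel per gene, with the groups along the horizontal axis, a point per array and a bar at each group's mean. Both groups given TsSP lie below both groups without it for Il1a, Il1b, Il18, Il18bp, Nlrp3 and Casp4 and above them for Il1rn, Il1r2 and Pycard, while the Casp1 points with and without TsSP overlap.

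Il1a, which encodes IL-1 alpha, an alarm cytokine active also in its uncleaved form, fell furthest among the members. Its log2 signal was 11.74, 11.86 and 11.69 on the Inulin+TsSP arrays, 11.58, 11.66 and 11.49 on the TsSP arrays, 14.43, 14.48 and 14.47 on the Inulin arrays and 14.51, 14.39 and 14.46 on the LPS arrays. The arrays with TsSP and those without it were far apart and each set was tight. TsSP against LPS gave a fall of 7.33-fold (95% interval 6.25 to 8.59; limma log2 SE 0.10, adjusted p = 2.15e-08), and TsSP added to inulin a fall of 6.49-fold (adjusted p = 3.32e-08). Among 8390 genes above background in both the TsSP and the LPS group, 3444 were lower, and the Il1a fall ranked 17 by size.

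Il1b, which encodes IL-1 beta, the ligand that needs cleavage by caspase-1, fell less. Its log2 signals were 15.09, 15.37 and 15.15 in Inulin+TsSP, 14.88, 15.19 and 15.15 in TsSP, 16.01, 16.25 and 16.10 in Inulin and 16.08, 15.87 and 16.07 in LPS. Each array with TsSP was below each array without it. The fall was 1.91-fold in TsSP against LPS (interval 1.56 to 2.34; log2 SE 0.13, limma adjusted p = 0.00048) and 1.88-fold when TsSP was added to inulin (adjusted p = 0.000577). It ranked 389 of the 3444 lower genes. Within an array, Il1a minus Il1b was -3.44 ± 0.082 in Inulin+TsSP, -3.50 ± 0.178 in TsSP, -1.66 ± 0.103 in Inulin and -1.56 ± 0.067 in LPS (SD, n = 3 each). Il1a thus lost 3.84-fold more signal than Il1b with TsSP against LPS and 3.45-fold more when TsSP was added to inulin, with no overlap between arrays. These within-array differences are described without a test.

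Il18, which encodes the IL-18 precursor, a ligand known for driving interferon gamma production by lymphocytes, also fell. Log2 signals of Il18 were 12.58, 12.50 and 12.60 in Inulin+TsSP, 12.68, 12.38 and 12.53 in TsSP, 13.64, 13.48 and 13.57 in Inulin and 13.56, 13.42 and 13.51 in LPS. All arrays with TsSP lay below all arrays without it. The fall was 1.95-fold in TsSP against LPS (log2 SE 0.11, limma adjusted p = 0.000116) and 2.00-fold when TsSP was added to inulin (adjusted p = 9.11e-05), close in size to that of Il1b.

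The antagonist genes of the family went different ways. Il1rn, the receptor antagonist gene, had log2 signals of 17.21, 17.08 and 17.21 in Inulin+TsSP, 17.02, 17.11 and 17.04 in TsSP, 16.62, 16.67 and 16.75 in Inulin and 16.83, 16.76 and 16.68 in LPS. The TsSP arrays lay above the LPS arrays without overlap, but the difference of 0.30 (95% interval 0.07 to 0.53) did not pass the threshold (limma adjusted p = 0.0718). It rose 1.40-fold when TsSP was added to inulin (interval 1.20 to 1.64; adjusted p = 0.0067) and 1.33-fold in Inulin+TsSP against LPS (adjusted p = 0.0168). Over the alternatives the adjusted p of the TsSP against LPS difference ran from 0.000186 with a mean-variance trend to 0.65 with arrays centred on exon control probe sets, where the difference was 0.09. With that centring the rise on inulin was 0.38 (adjusted p = 0.0631) and the rise in Inulin+TsSP against LPS was 0.22 (adjusted p = 0.273). The last call was also lost without LPS replicate 3 (adjusted p = 0.0603), without Inulin+TsSP replicate 1 (0.0559) and without Inulin+TsSP replicate 3 (0.0586).

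The Il1rn and Il1b signals therefore stood further apart on arrays with TsSP. Il1rn minus Il1b was 1.96 ± 0.221 in Inulin+TsSP, 1.98 ± 0.135 in TsSP, 0.56 ± 0.125 in Inulin and 0.75 ± 0.144 in LPS (SD, n = 3 each). The shift in favour of the antagonist was 2.35-fold with TsSP against LPS and 2.64-fold when TsSP was added to inulin, and no array with TsSP overlapped one without it. In TsSP against LPS this shift joined a log2 change of -0.93 in Il1b with one of 0.30 in Il1rn, which was not called. On inulin these changes were -0.91 and 0.49. A difference within an array does not depend on how arrays are centred, but its level depends on the 2 probe sets.

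**Figure D2:**
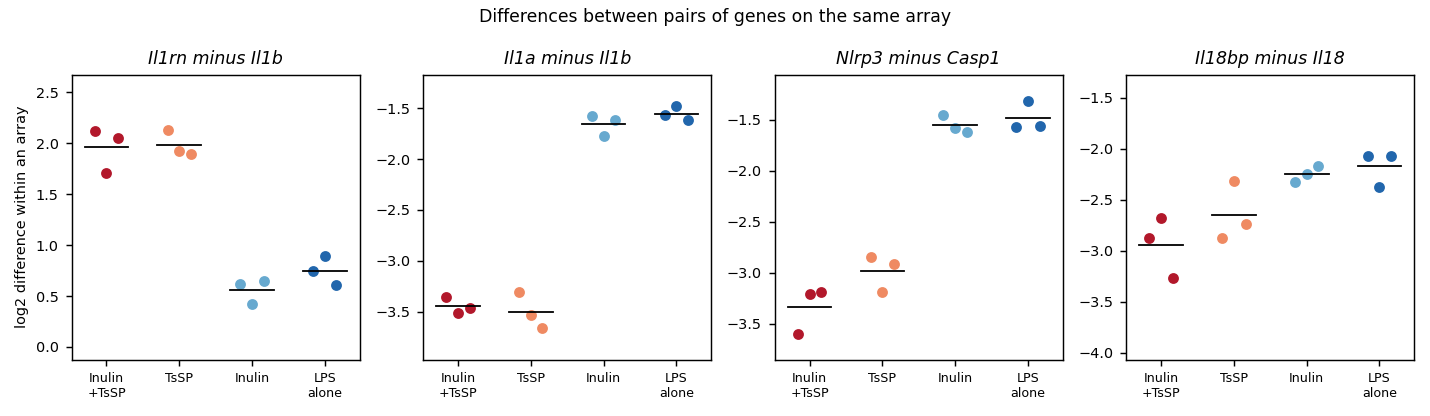
Difference in log2 signal between 2 genes on the same array, for Il1rn minus Il1b, Il1a minus Il1b, Nlrp3 minus Casp1 and Il18bp minus Il18, with a point per array and a bar at each group's mean. Il1rn minus Il1b is higher with TsSP and the Il1a and Nlrp3 differences are lower, without overlap, while the Il18bp difference overlaps between TsSP and LPS.

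Il1r2, the decoy receptor gene, was at the edge of detection and rose. Its log2 signals were 7.95, 7.50 and 7.72 in Inulin+TsSP, 7.22, 7.72 and 7.49 in TsSP, 5.31, 5.52 and 4.87 in Inulin and 5.65, 6.29 and 5.90 in LPS. All 6 arrays with TsSP were above background, against 0 of 3 Inulin arrays and 1 of 3 LPS arrays. Because the groups without TsSP were dim, the rise is a bound: at least 2.36-fold in TsSP against LPS (limma adjusted p = 0.000427) and at least 2.86-fold when TsSP was added to inulin (adjusted p = 1.17e-05). In this bound, a dim array counts at its background level unless its Il1r2 signal was higher.

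Il18bp fell, in the same direction as the ligand gene whose product it captures. Il18bp had log2 signals of 9.70, 9.82 and 9.34 in Inulin+TsSP, 9.80, 10.06 and 9.79 in TsSP, 11.30, 11.22 and 11.39 in Inulin and 11.49, 11.05 and 11.44 in LPS. No array with TsSP reached one without it. The fall was 2.72-fold in TsSP against LPS (log2 SE 0.16, limma adjusted p = 8.67e-05) and 3.22-fold when TsSP was added to inulin (adjusted p = 2.68e-05). Il18bp minus Il18 was -2.94 ± 0.301 in Inulin+TsSP, -2.65 ± 0.289 in TsSP, -2.25 ± 0.081 in Inulin and -2.17 ± 0.174 in LPS (SD, n = 3 each). The arrays of TsSP and LPS overlapped in that difference, whereas those of Inulin+TsSP and Inulin did not.

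Nlrp3, the inflammasome sensor gene, had the next largest fall after Il1a. On the log2 scale Nlrp3 measured 12.88, 13.21 and 13.20 in Inulin+TsSP, 13.30, 13.16 and 13.25 in TsSP, 14.97, 14.94 and 14.98 in Inulin and 14.90, 15.00 and 14.97 in LPS. The arrays without TsSP were tightly grouped and stood well above the rest. The fall was 3.30-fold in TsSP against LPS (log2 SE 0.12, limma adjusted p = 1.84e-06) and 3.65-fold when TsSP was added to inulin (adjusted p = 9.98e-07). It ranked 104 of the 3444 lower genes.

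The caspase genes, neighbours on chromosome 9, changed little beside it. Casp1, which encodes the caspase that cleaves IL-1 beta and IL-18, had log2 signals of 16.48, 16.42 and 16.39 in Inulin+TsSP, 16.15, 16.35 and 16.17 in TsSP, 16.42, 16.53 and 16.60 in Inulin and 16.47, 16.31 and 16.53 in LPS. The arrays with and without TsSP overlapped. Its difference was -0.21 in TsSP against LPS (95% interval -0.46 to 0.04; limma adjusted p = 0.253) and -0.09 when TsSP was added to inulin (interval -0.33 to 0.16; adjusted p = 0.70). The TsSP against LPS difference passed the threshold under 2 of 20 alternatives, with a mean-variance trend (adjusted p = 0.0204) and with centring on exon controls (-0.42, adjusted p = 0.0301). Over all 20 the adjusted p reached 0.471, without LPS replicate 3. Nlrp3 minus Casp1 shifted by 2.85-fold with TsSP against LPS, being -2.99 ± 0.177 in TsSP and -1.48 ± 0.148 in LPS (SD, n = 3 each).

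Casp4, which in the mouse encodes the caspase that senses LPS inside the cell, fell modestly. Its log2 signals were 15.24, 14.94 and 15.05 in Inulin+TsSP, 14.87, 14.99 and 15.04 in TsSP, 15.52, 15.59 and 15.50 in Inulin and 15.54, 15.53 and 15.39 in LPS. No array with TsSP reached one without it. The fall was 1.44-fold in TsSP against LPS (log2 SE 0.12, limma adjusted p = 0.00797), 1.37-fold when TsSP was added to inulin (adjusted p = 0.0174) and 1.33-fold in Inulin+TsSP against LPS (adjusted p = 0.0297). The call on inulin was lost without Inulin replicate 2 (adjusted p = 0.0625), Inulin+TsSP replicate 2 (0.0699) or Inulin+TsSP replicate 3 (0.0578), within a range of 2.66e-05 to 0.0699 over the alternatives. That of Inulin+TsSP against LPS was lost without LPS replicate 1 (adjusted p = 0.0771), LPS replicate 2 (0.0817), Inulin+TsSP replicate 2 (0.106) or Inulin+TsSP replicate 3 (0.086), within a range of 0.000116 to 0.12.

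Pycard, the adaptor gene, was the inflammasome member that rose. Its log2 signals were 10.08, 9.66 and 9.82 in Inulin+TsSP, 9.98, 9.99 and 9.96 in TsSP, 9.15, 9.13 and 8.95 in Inulin and 9.17, 9.00 and 9.14 in LPS. Each array with TsSP was above each array without it, and all were above background, so the Pycard probe set gave signal in this line. Whether RNA of other genes adds to that signal was not tested. The rise was 1.83-fold in TsSP against LPS (log2 SE 0.13, limma adjusted p = 0.000564) and 1.71-fold when TsSP was added to inulin (adjusted p = 0.00131). It ranked 656 of 4946 higher genes.

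**Figure D3:**
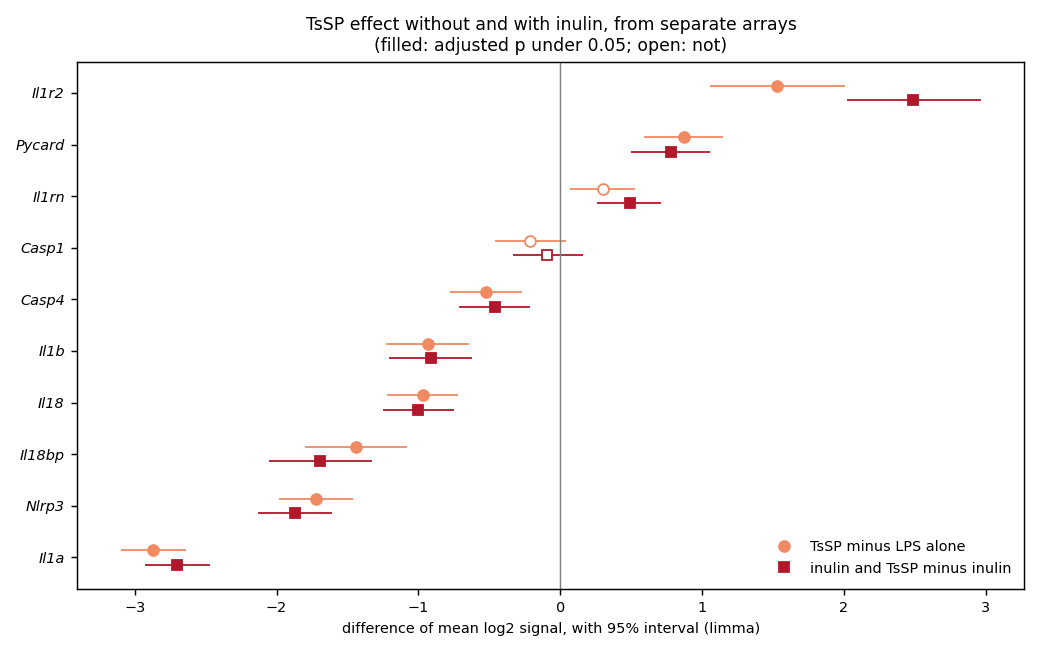
Log2 change of each of the 10 genes with TsSP, with 95% intervals from limma. Circles show TsSP against LPS alone and squares show TsSP added to inulin. Their means come from separate arrays, while the spread behind the intervals is shared over all 12 arrays. Filled symbols passed the threshold. Il1a is lowest at -2.87 and -2.70, the Casp1 intervals include 0 in both, and Il1r2 is plotted at 1.53 and 2.49 although its groups without TsSP were mostly below background, so that its position is not a measured size.

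Inulin by itself left the members close to their levels with LPS alone. By limma, 0 of 10 members were called in Inulin against LPS, where 0.0% of all genes were called. At an unadjusted p below 0.05 there was 1 member, Il1r2, beside 1143 genes. Its limma adjusted p was 0.66, and its probe set was above background on only 1 of these 6 arrays, so no size is given. The intervals of the other members were narrow: 0.01 for Il1a (-0.22 to 0.24), 0.11 for Il1b (-0.18 to 0.41), 0.07 for Il18 (-0.18 to 0.32) and 0.00 for Nlrp3 (-0.25 to 0.26). Those of Il1rn (-0.30 to 0.15), Casp1 (-0.17 to 0.33), Casp4 (-0.20 to 0.30), Pycard (-0.31 to 0.25) and Il18bp (-0.38 to 0.34) also included 0.

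Adding inulin to TsSP gave 0 called members, where 0.0% of genes were called, and 0 members and 971 genes at an unadjusted p below 0.05. The other 9 members' differences ran from -0.26 for Il18bp to 0.21 for Casp1, and Il1r2 differed by 0.25. The interaction, which asks whether the TsSP change depends on inulin, was called for 0 members and 0.0% of genes by limma, with 1 member and 1089 genes at an unadjusted p below 0.05. That member was Il1r2 (limma adjusted p = 0.815), for which no size is given because its signal was above background on 0 of 3 Inulin arrays and 1 of 3 LPS arrays. For the other 9 members the interaction estimates lay between -0.24 and 0.19.

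Fitted changes depend on how arrays are scaled. The 1324 exon control probe sets had medians of 11.22 to 11.36 on the 6 arrays with TsSP, against 11.00 to 11.21 on the 6 without. Centring on them moved the median of all genes to -0.189 in TsSP against LPS, -0.108 when TsSP was added to inulin and -0.173 in Inulin+TsSP against LPS. The share of calls that were higher was then 31.8%, 37.1% and 30.5%, against 60.8%, 52.0% and 58.5% with the values as deposited. With quantile normalization these shares were 52.7%, 51.7% and 52.2%. Under that exon control centring Il1a (-3.08), Nlrp3 (-1.93) and Il18bp (-1.65) still lay far below the shifted median in TsSP against LPS, and Pycard (0.66) above it. All 10 members kept the sign they had with the deposited values in TsSP against LPS.

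Some other ligands and receptors of the IL-1 family rose with TsSP. Of 13 listed, 11 were measured, only 5 of them above background in some group, and in TsSP against LPS 4 rose and 0 fell by limma, where 11.0% of all genes rose and 7.08% fell (list median 0.34, against 0.019 for all genes). Il1rap, the accessory chain of the IL-1 receptor, differed by -0.37 in TsSP against LPS (adjusted p = 0.187), by -0.50 when TsSP was added to inulin (adjusted p = 0.0781) and by -0.51 in Inulin+TsSP against LPS (adjusted p = 0.0651). The alarm cytokine gene Il33 differed by -0.17 in TsSP against LPS (limma adjusted p = 0.783). Both were named after their values were seen. Il1f9, the older symbol of the IL-36 gamma gene, rose 6.30-fold (interval 5.16 to 7.68; log2 SE 0.13, adjusted p = 1.77e-07), with mean log2 signals of 13.55 ± 0.067 in TsSP and 10.89 ± 0.175 in LPS (SD, n = 3 each). Il1f6, the older symbol of the IL-36 alpha gene, rose 2.94-fold (adjusted p = 0.000109), and Il18rap, a chain of the IL-18 receptor, rose 3.32-fold (adjusted p = 0.00099). Both IL-36 genes also rose when TsSP was added to inulin, by 5.74-fold and 2.93-fold. IL-36 cytokines are known as epithelial alarm signals that act through their own receptor, whose gene Il1rl2 was below background here. The fourth gene, Il1r1, the signalling IL-1 receptor beside Il1r2 on chromosome 1, rose by 1.43 but was above background on only 1 of 3 TsSP arrays and 0 of 3 LPS arrays. Its call was lost without LPS replicate 1 (adjusted p = 0.0586), LPS replicate 3 (0.0609), TsSP replicate 1 (0.0672) or TsSP replicate 2 (0.082). Centring on exon controls made Il1rap a gene that fell in all 3 of these comparisons (adjusted p 0.0177 to 0.0455), and over the alternatives its adjusted p reached 0.471.

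The signal transducers of the IL-1 and Toll-like receptors went both ways. Of the 18 measured, 17 were above background in some group. Among the 9022 genes above background alone, 1565 fell and 2617 rose in TsSP against LPS. In TsSP against LPS 4 of 18 measured genes fell and 2 rose, where 7.08% of all genes fell and 11.0% rose (limma, list median -0.06, against 0.019 for all genes). Peli1, a ubiquitin ligase of the pathway, fell 3.06-fold (adjusted p = 9.35e-07), the kinase gene Irak2 fell 1.76-fold (adjusted p = 0.0003), and Myd88, the shared adaptor gene, fell 1.60-fold (adjusted p = 0.00547). Ticam2, another adaptor gene, fell 1.70-fold, a call lost without LPS replicate 1 or 2 or TsSP replicate 2 or 3 (adjusted p 0.0534 to 0.0949). The kinase regulator gene Ikbkg and the adaptor gene Tirap rose 1.50-fold and 1.47-fold; with exon control centring they were higher by 0.38 and 0.34 on the log2 scale, short of the threshold (adjusted p = 0.0798 and 0.106). When TsSP was added to inulin, where 7.99% of all genes fell and 8.66% rose, 3 fell (Peli1, Irak2 and Ticam2) and 1 rose (Ikbkg). There the Ticam2 call was lost without Inulin replicate 3 or Inulin+TsSP replicate 3 (limma adjusted p = 0.0527 and 0.0626). Myd88 and Tirap were not called in that comparison. Over the alternatives, Myd88 passed there in 4 of 20 (adjusted p up to 0.263) and Tirap in 0 of 20 (changes of 0.04 to 0.20).

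Among 29 measured inflammasome sensors and regulators, 7 fell and 4 rose in TsSP against LPS, beside 7.08% and 11.0% of all genes (limma, list median -0.11). The cytosolic DNA sensor genes Aim2 and Cgas fell 2.30-fold (adjusted p = 0.000464) and 1.76-fold (adjusted p = 0.000241), and Gbp3, an interferon-induced guanylate-binding protein gene, fell 1.74-fold (adjusted p = 0.00033). Pstpip1, whose product binds pyrin, rose 2.18-fold (adjusted p = 3.46e-05), and Txnip, whose product is reported to bind NLRP3, rose 1.91-fold (adjusted p = 0.000708). Nlrx1 and Card9 rose 2.01-fold and 1.65-fold. The Nlrx1 call was lost without LPS replicate 3 (adjusted p = 0.0612) or TsSP replicate 1 (0.0658), that of Card9 without LPS replicate 1 or 2 or TsSP replicate 2 or 3 (0.0806 to 0.116), and both with exon control centring. When TsSP was added to inulin, 7 fell and 3 rose, beside 7.99% and 8.66% of all genes. Those that rose were Pstpip1, Txnip and Nlrx1, the last called under only 7 of 20 alternatives. Card9 was not called there and passed under 0 of 20 alternatives.

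Of 13 measured pyroptosis and cell death effectors, 3 rose and 3 fell in TsSP against LPS, beside 11.0% and 7.08% of all genes (limma, list median 0.09). The necroptosis kinase gene Ripk3 rose 2.59-fold (adjusted p = 1.15e-05), while Mlkl, the pore former that RIPK3 activates, fell 1.48-fold (adjusted p = 0.0026). Capn2, a calpain gene, rose 1.50-fold (adjusted p = 0.00165). Gsdmd, which encodes the pore former cut by the inflammatory caspases, fell 1.37-fold (adjusted p = 0.0131), and Cflar, a brake on caspase-8, fell 1.50-fold. Without TsSP replicate 3 the Gsdmd and Cflar calls were lost (adjusted p = 0.0575 and 0.0715), which left 1 gene that fell. Cflar was also lost without LPS replicate 2 or TsSP replicate 2 (adjusted p = 0.0555 and 0.0616). The third gene that rose, Capn1, was 1.47-fold higher, a call lost without LPS replicate 1 or 3 or TsSP replicate 2 or 3 (adjusted p 0.0571 to 0.0681). Exon control centring also lost the Capn1 call (limma adjusted p = 0.138).

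Of 19 measured regulators of transcription and RNA decay, 6 rose and 7 fell in TsSP against LPS, beside 11.0% and 7.08% of all genes (limma, list median -0.16). Irf1, an interferon-induced activator, fell 4.11-fold (adjusted p = 1.71e-06) and Atf3, a repressor of inflammatory genes, fell 2.38-fold (adjusted p = 5.75e-06). Irf8, a myeloid transcription factor gene, rose 3.69-fold (adjusted p = 2.89e-06) and Hif1a, whose product is known to activate Il1b, rose 2.59-fold (adjusted p = 4.18e-06). When TsSP was added to inulin, 4 rose and 8 fell, beside 8.66% and 7.99% of all genes. Those that rose were Fos (3.88-fold), Hif1a (2.68-fold), Irf8 (2.67-fold) and Bcl3 (1.71-fold). Inulin against LPS, inulin added to TsSP and the interaction called 0 genes of any of these lists.

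**Figure D4:**
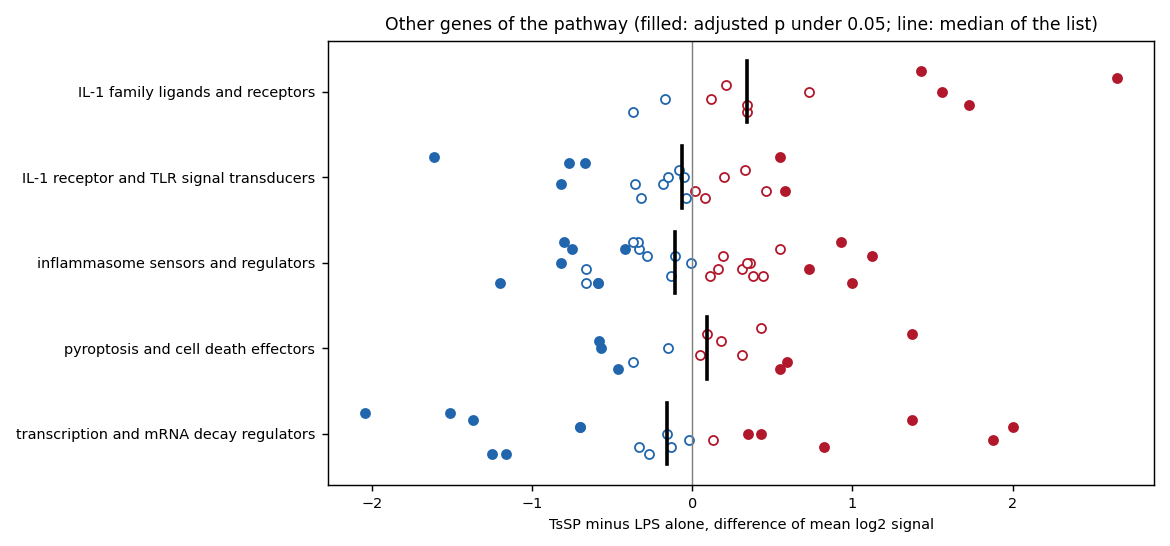
Log2 change in TsSP against LPS alone for each measured gene of the 5 pathway lists outside the members, 1 row per list, with filled points for genes past the limma threshold, open points for the others and a bar at the list's median. The medians lie between -0.16 and 0.34, and Il1f9 at 2.65 and Irf1 at -2.04 are the extremes of their lists.

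Over the 4 group means, each less their common mean, the genes nearest to Il1a among 8833 above background were Tagap, Calhm6 and Plk2, at root mean square distances of 0.0793, 0.0804 and 0.0833 log2 units. Those nearest to Il1b were Apobec3 (0.00261), Arhgap10 (0.0178) and Rdh10 (0.0199). For Il1rn they were Ppp2cb (0.00667), Fcgr3 (0.0103) and Snf8 (0.0159). In TsSP against LPS, Rdh10 (limma adjusted p = 0.0518), Ppp2cb (0.13), Fcgr3 (0.104) and Snf8 (0.268) were not called, while the other genes in these lists of nearest genes were. Likeness over 4 group means describes only the shape of the response on these arrays.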

How the data were processed

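RNA from RAW 264.7 cells was extracted on RNeasy columns and hybridised to 12 single-colour Affymetrix arrays, per the labels' protocols. The deposited table holds log2 values for 28846 probe sets. Base 2 was inferred from their range of 1.32 to 18.94. How the authors corrected background and normalized, and with which software, is not given in the sources used here. Any compression of dim or bright signal by that processing enters every fold.

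Of the probe sets, 19572 have 1 gene symbol, all matched to RefSeq by gene number. For 55 genes with several, the brightest was kept, leaving 19505 genes. One limma model (3.58.1, R 4.3.3) with 4 group means and 8 residual degrees of freedom gave 6 contrasts, with two-sided p-values adjusted by Benjamini and Hochberg and a threshold of 0.05. It was tested on simulated data. Background was the brightest of 23 background probes on each array. Array number, 3 per group, limits the precision. The text names all members, up to 4 genes of smallest p per list, every gene behind a stated count of 5 or fewer, and the 3 genes most like Il1a, Il1b and Il1rn. The members and lists were chosen with earlier results of these data known. In all, 20 alternatives were run, one of them (exon control centring) chosen after seeing the data. Plots used matplotlib 3.10.9.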

Additional observations from a re-analysis of the deposited data

How the results depend on the processing

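Over 20 alternatives (quantile normalization, median centring, exon control centring, genes above background only, a mean-variance trend, the mean of probe sets, a replicate block, only the arrays of a comparison, and 12 fits without 1 array), the TsSP calls of Il1a, Il1b, Il1r2, Il18, Il18bp, Nlrp3 and Pycard held throughout in the 3 comparisons, as did that of Casp4 in TsSP against LPS. Of 600 member values in those comparisons, 16 lost a call, 4 gained one and 0 changed direction past the threshold; these concern Il1rn, Casp1 and Casp4, and the cause was not tested. Beside the values given above, calls were lost with only the arrays of the comparison for Casp4 (adjusted p = 0.0627 on inulin and 0.12 in Inulin+TsSP against LPS) and Il1rn (0.0928 in Inulin+TsSP against LPS), and Il1rn in TsSP against LPS passed among genes above background only (adjusted p = 0.0106). The labels do not say whether same-numbered arrays were paired. Deviations of same-numbered arrays correlated at -0.094 to 0.105, against -0.127 to 0.112 for arrays of unlike number. Of 12 arrays, 3 correlated best with their own number. These values showed no shared deviation, but they cannot settle whether arrays were paired. With the replicate block the genes called were 3203, 2941 and 3093 for TsSP against LPS, TsSP added to inulin and Inulin+TsSP against LPS, against 3525, 3248 and 3433 without it, and the Casp4 call of the last comparison was lost (adjusted p = 0.0593). The pyroptosis and cell death list held 5 genes that rose in TsSP against LPS, rather than 3, when only genes above background were fitted. Signal near background limits Il1r2 and Il1r1, and 3 arrays a group limit differences as small as those of Il1rn and Casp1.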
